A study of Homo sapiens with 12 samples.

Results

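Transcripts of 10 enzymes of glucose breakdown were followed across 12 microarrays of a hepatocellular carcinoma line: LDHA, LDHB, HK1, HK2, GPI, PFKL, ALDOA, TPI1, PGK1 and ENO1. Members were the gene probes whose gene name in the scanner output was one of these symbols, which gave 22 probes for 10 of the 29245 gene names on the array. The symbols were picked with their differences between treated and control cells at both doses already seen. The differences of these 10 genes are therefore given as a description, without a test, and the limits applied to other genes are mentioned for them only to place them on the same scale.

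The cells were HuH-7, a line grown from a human hepatocellular carcinoma that carries the p53 mutant Y220C, a destabilizing substitution in the DNA-binding domain. They were exposed for 24 h to DMSO, the vehicle, or to SLMP53-2, a small molecule studied as a reactivator of mutant p53, at 28 µM or at 42 µM. For the higher dose the sample titles and the treatment protocol give 42 µM, whereas the treatment field of the same 4 arrays gives 48 µM, so the dose is called 42 µM here by its titles. Each of the 3 groups held 4 arrays described as biological replicates. All groups shared the genotype, and a single line without a p53-null or wild-type counterpart cannot separate effects through p53 from other effects of the compound.

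Glycolysis turns glucose into pyruvate in the cytosol, first spending ATP to trap and split the sugar and then recovering ATP and NADH from the resulting triose phosphates. Lactate dehydrogenase passes the electrons of NADH to pyruvate, which makes lactate and returns NAD+ so that the pathway can go on without oxygen. Differentiated hepatocytes mostly run the pathway backwards to make glucose, while liver tumour cells commonly keep high levels of the forward enzymes.

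At 42 µM, the brightest probes of LDHA, TPI1 and PGK1 lay below all 4 DMSO arrays, and LDHA was 2.43-fold lower by that probe. Those of HK2, GPI, PFKL, ALDOA, ENO1 and LDHB overlapped the controls. The other LDHA and PGK1 probes overlapped them too. Around these members, PHGDH, the first enzyme of serine synthesis, rose, as did the neuronal enolase ENO2, while PGAM1, which acts between PGK1 and the enolases, fell. The later serine enzymes PSAT1 and PSPH, the latter by 1 of its 3 probes, also passed the limits, but not under any of the 3 other scalings. In bulk RNA of this kind, fewer cells of one state and less RNA per cell cannot be told apart.

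Values are log2 intensities after background correction and quantile normalisation, and a difference of 1 is a 2-fold difference. Of the 43376 gene spots per array, between 65.0 and 85.0% were well above background, and no member spot was saturated. All 10 hepatocyte markers were detected on all 12 arrays, at 6.43 to 16.4, while the leukocyte marker PTPRC was detected on none. The leukocyte markers CD3E and CD68 were detected on all 12 arrays at 6.63 to 7.62, near the hepatocyte factor HNF4A (6.43 to 6.85), the endothelial markers PECAM1 and CDH5 were detected on 11 and 10 arrays, and of the stromal markers COL1A1 was detected on 7, PDGFRB on 10, and COL1A2 (9.87 to 10.3) and THY1 (8.97 to 9.71) on all 12. By the members, the array of 28 µM replicate 4 stood apart from its group: 2 of its 9 measured members were below the DMSO mean, against 7 or 8 on the other 28 µM arrays. Of its 20 tested member probes 8 lay above the range of the DMSO arrays, 3 below and 9 inside, whereas the other 28 µM arrays had at most 1 above and 7 to 12 below. Results at 28 µM are therefore given with and without replicate 4. Because the members themselves set that array apart, their values without it are a description only. When arrays were weighted by their spread over all tested probes, 28 µM replicate 1 had the lowest weight of the 12 (0.306), against 0.718 for replicate 4. The 12 arrays lay on 5 slides, each of which held more than 1 group, and differences within a slide are given beside the results.

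Of the 22 member probes 20, for 9 genes, passed the filter on dim probes. The exceptions were both probes of HK1, the hexokinase of most tissues, which phosphorylates glucose on entry. Each was well above background on 1 of 12 arrays, their levels ran from 5.42 to 6.04, and HK1 was not compared. Of the 20 probes 18 were detected on every array, and the others were PGK1 probes detected on 8 and 7 arrays. Their sequences were 60 bases long and held 35.0 to 71.7% G and C.

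**Figure D1:**
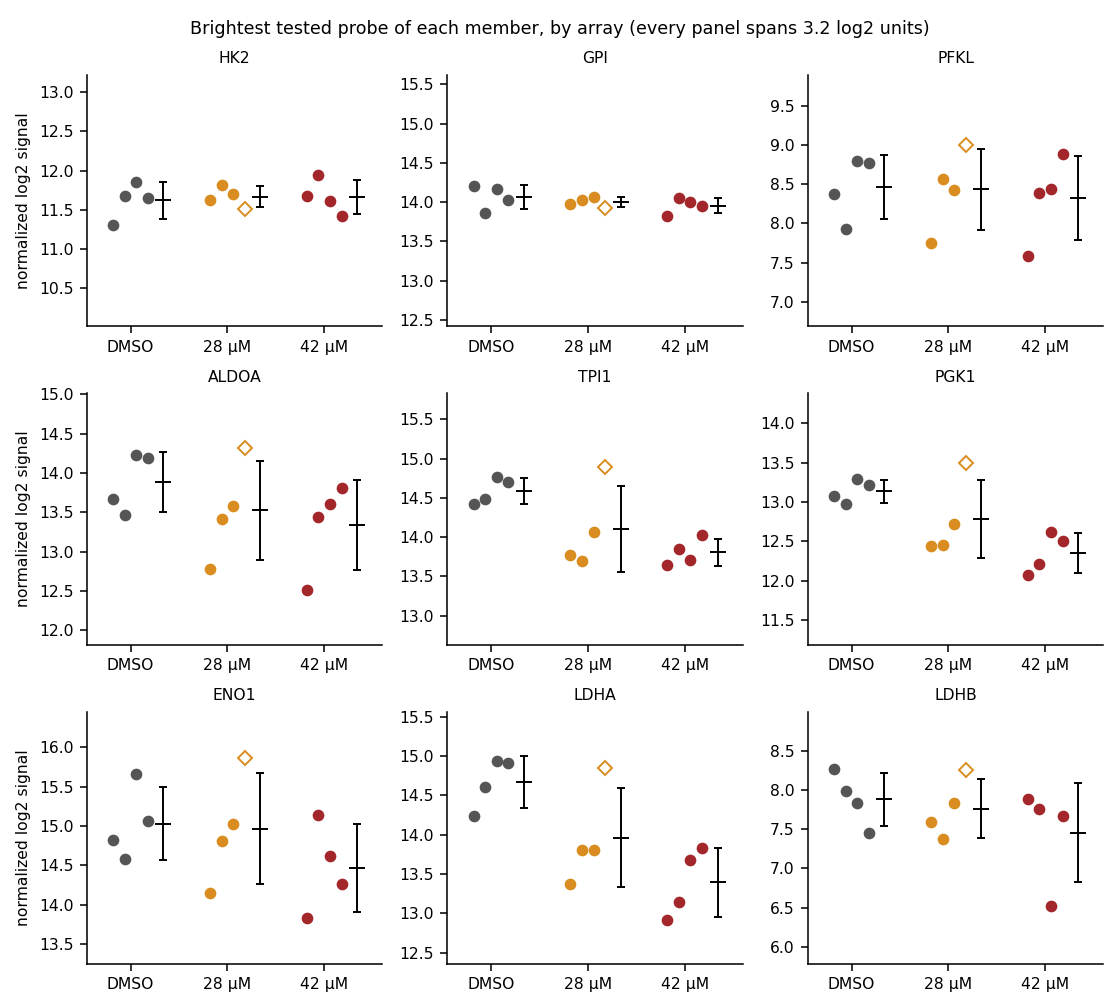
Normalised log2 intensity of the brightest probe of each of the 9 measured members, 1 panel a gene, with 1 point per array in the DMSO, 28 µM and 42 µM groups and the group mean ± SD (n = 4). The open diamond is 28 µM replicate 4, and each panel spans 3.2 log2 units; the LDHA, TPI1 and PGK1 points at 42 µM lie below all DMSO points.

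HK2, the inducible hexokinase typical of tumours, had DMSO levels of 11.30, 11.68, 11.85 and 11.65 in replicates 1 to 4 by its brighter probe. The 28 µM arrays gave 11.62, 11.82, 11.71 and 11.51, and the 42 µM arrays 11.68, 11.94, 11.61 and 11.43. The 3 groups overlapped fully, with log2 differences from DMSO of 0.04 ± 0.14 (SE) at each dose, a sign that turned with scaling to the 75th percentile (-0.05 at 28 µM and -0.09 at 42 µM). The dimmer HK2 probe differed by -0.27 ± 0.19 at 28 µM and by 0.01 ± 0.19 at 42 µM.

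GPI, the isomerase that converts glucose-6-phosphate to fructose-6-phosphate, had the smallest SE among the members' brightest probes. Its DMSO levels were 14.21, 13.87, 14.16 and 14.03. The 28 µM levels were 13.98, 14.03, 14.07 and 13.93, and those at 42 µM 13.83, 14.05, 14.00 and 13.95. Only 42 µM replicate 1 was below the lowest DMSO array, and the differences were -0.07 ± 0.11 and -0.11 ± 0.11.

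PFKL, the liver subunit of phosphofructokinase, which commits the sugar to breakdown, varied more among replicates than between groups. By the brighter of its 2 probes DMSO arrays ran from 7.93 to 8.80, 28 µM arrays from 7.76 upwards with a median of 8.50, and 42 µM arrays from 7.59 to 8.88. The differences were -0.03 ± 0.30 and -0.14 ± 0.30, and the 2 probes moved together over the 12 arrays (r = 0.95). Replicate 1 was the lowest PFKL array in both treated groups.

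ALDOA, the aldolase that splits fructose bisphosphate into 2 trioses, had DMSO levels of 13.67, 13.46, 14.23 and 14.19. At 28 µM its levels were 12.77, 13.42, 13.58 and 14.31, and at 42 µM 12.51, 13.44, 13.61 and 13.81. Each treated group overlapped the DMSO range, with replicate 1 the lowest in both, and the differences were -0.36 ± 0.33 and -0.54 ± 0.33. Its other probe was below all DMSO arrays at 28 µM (-0.60 ± 0.15) but overlapped them at 42 µM (-0.19 ± 0.15), so the 2 ALDOA probes ordered the doses differently.

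TPI1, the isomerase that interconverts the trioses, was lower at 42 µM by both probes. By the brighter probe DMSO arrays read 14.42, 14.48, 14.76 and 14.70, and 42 µM arrays 13.65, 13.85, 13.70 and 14.03. The 28 µM arrays read 13.78, 13.70, 14.06 and 14.90, the last being replicate 4, which lay above every DMSO array. Log2 differences were -0.48 ± 0.22 at 28 µM and -0.78 ± 0.22 at 42 µM.

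The other TPI1 probe, further downstream at chr12:6980016-6980075 (hg19, plus strand), gave wider differences. Its DMSO levels were 11.75, 11.91, 12.02 and 12.04, its 28 µM levels 10.65, 10.25, 10.90 and 11.86, and its 42 µM levels 10.42, 10.27, 10.81 and 11.05. The 42 µM arrays were all below the DMSO arrays, and the difference of -1.29 ± 0.28 was past the limits used for other genes. Within the 3 slides holding both groups it was -1.62, -1.75 and -1.10. It was no longer past the limits with the slide as a block or without any 1 of the 4 DMSO arrays or 42 µM replicates 1 or 2, with values of -1.43 to -1.17 over all single arrays left out.

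PGK1, the kinase that recovers the first ATP of the pathway, was spotted 10 times per array by its brightest probe, at chrX:77381462-77381521 (hg19, plus strand). The 10 spots of an array had SDs of 0.100 to 0.276. DMSO levels were 13.07, 12.97, 13.29 and 13.22, 28 µM levels 12.44, 12.46, 12.72 and 13.50, and 42 µM levels 12.07, 12.21, 12.62 and 12.51. All 42 µM arrays and 3 of the 28 µM arrays were below the DMSO arrays, while 28 µM replicate 4 was above them. The differences were -0.36 ± 0.21 and -0.78 ± 0.21, and within slides -1.15, -1.08 and -0.35 at 42 µM.

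The 4 other PGK1 probes differed by between -0.67 and 0.09 at 42 µM and overlapped DMSO. A pair of them, each placed across a gap in the genome, share a run of 22 bases, printed in capitals, because they show how close probes under a single gene name read differently:
PGK1 A_24_P604649: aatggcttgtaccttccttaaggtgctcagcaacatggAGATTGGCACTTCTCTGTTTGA
PGK1 A_24_P119774: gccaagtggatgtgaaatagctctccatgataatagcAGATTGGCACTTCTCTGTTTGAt
The former lies within chrX:77378407-77378711 and the latter within chrX:77378460-77378712 (hg19, plus strand). The former read 8.64 to 10.96 over all arrays and differed by -0.67 ± 0.40 at 42 µM, while the latter, near background at 5.88 to 6.51, differed by 0.09 ± 0.14. Processed copies of PGK1, LDHA, TPI1 and ENO1 exist elsewhere in the genome, and hybridisation of near-identical transcripts to these probes was not tested.

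ENO1, the ubiquitous enolase that forms phosphoenolpyruvate, gave no common picture over its 2 probes. These lie 33 bases apart, at chr1:8923961-8924020 and chr1:8924054-8924113 (hg19, minus strand), and are printed because of that closeness, with no base marked:
ENO1 A_24_P105501: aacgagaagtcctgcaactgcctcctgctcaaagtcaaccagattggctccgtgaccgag
ENO1 A_23_P137391: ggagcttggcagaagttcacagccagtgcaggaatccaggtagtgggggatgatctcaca
By the former, DMSO arrays read 14.82, 14.58, 15.66 and 15.06, 28 µM arrays 14.15, 14.81, 15.03 and 15.87, and 42 µM arrays 13.83, 15.14, 14.62 and 14.26. The groups overlapped, with differences of -0.07 ± 0.35 and -0.57 ± 0.35. By the latter the differences were 0.19 ± 0.42 and 0.08 ± 0.42, and the correlation between the 2 probes over 12 arrays was 0.30.

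LDHA, which encodes the muscle-type subunit of lactate dehydrogenase, was measured by 3 probes. The brightest lies at chr11:18428789-18428848 (hg19, plus strand) and a second, 470 bases further downstream, at chr11:18429319-18429378. The scanner annotation places the other at chr9:14921817-14921876 (minus strand), although it carries the name of LDHA, a chromosome 11 gene. The brightest probe and the one placed on chromosome 9 are printed, with no base marked, since they moved alike:
LDHA A_23_P47565: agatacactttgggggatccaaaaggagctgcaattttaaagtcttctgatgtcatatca
LDHA A_32_P44568: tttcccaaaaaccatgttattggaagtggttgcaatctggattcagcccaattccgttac

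By its brightest probe LDHA read 14.23, 14.60, 14.94 and 14.91 in DMSO replicates 1 to 4, a mean of 14.67 ± 0.33 (SD, n = 4). At 28 µM it read 13.37, 13.81, 13.81 and 14.85, a mean of 13.96 ± 0.63. At 42 µM it read 12.92, 13.14, 13.68 and 13.83, a mean of 13.39 ± 0.43. Every 42 µM array and 3 of the 4 at 28 µM lay below the lowest DMSO array, and 28 µM replicate 4 lay among the DMSO arrays. The log2 difference from DMSO was -0.71 ± 0.29 (SE) at 28 µM and -1.28 ± 0.29 at 42 µM, or 2.43-fold lower. Without replicate 4 the 28 µM mean was 13.66 ± 0.25 (n = 3) and the difference -1.01 ± 0.24. Between the doses, 42 µM was -0.57 ± 0.29 from 28 µM and the arrays overlapped.

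Within the slides that held both groups, LDHA at 42 µM differed from DMSO by -1.99, -1.81 and -0.92, and at 28 µM by -0.43, -1.54 and, for replicate 4, -0.091. The 42 µM difference was past the limits used for other genes, and was not with quantile-normalised processed signals (-1.23), with the slide as a block (-1.41), with the mean of the 3 probes (-0.94), or without any 1 of DMSO replicates 1 to 4, 28 µM replicate 3 or 42 µM replicates 1 to 3. Over all single arrays left out it ran from -1.43 to -1.12.

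**Figure D2:**
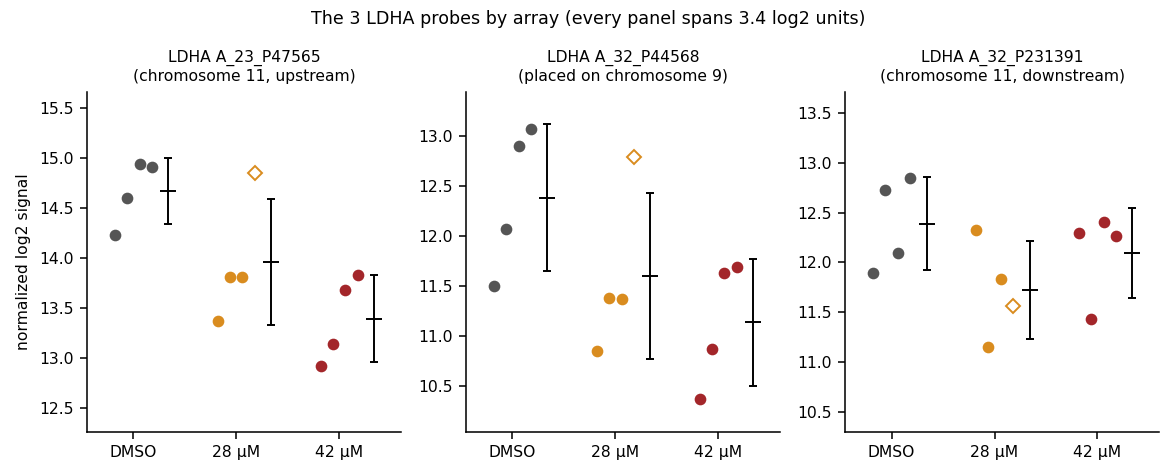
Normalised log2 intensity of the 3 LDHA probes by group, 1 point per array, with the mean ± SD (n = 4) and the open diamond for 28 µM replicate 4; each panel spans 3.4 log2 units. The upstream chromosome 11 probe and the probe placed on chromosome 9 step down with dose, while the downstream probe overlaps between groups.

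The probe placed on chromosome 9 followed the brightest LDHA probe closely, with r = 0.96 over 12 arrays and 0.97 after group means were removed. It read 11.50, 12.08, 12.90 and 13.07 in DMSO, 10.85, 11.38, 11.37 and 12.80 at 28 µM, and 10.36, 10.87, 11.63 and 11.69 at 42 µM, with differences of -0.78 ± 0.44 and -1.25 ± 0.44. Both treated groups overlapped DMSO by this probe. The downstream probe read 11.89, 12.73, 12.09 and 12.84, then 12.33, 11.15, 11.84 and 11.57, then 12.29, 11.43, 12.40 and 12.27. It overlapped between all groups, differed by -0.67 ± 0.29 at 28 µM and -0.29 ± 0.29 at 42 µM, and correlated with the brightest probe at 0.22. The size of the LDHA difference at 42 µM therefore depended on the probe.

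LDHB, the heart-type subunit, which favours the return of lactate to pyruvate, was read by 1 probe. It gave 8.26, 7.98, 7.83 and 7.45 in DMSO, 7.59, 7.37, 7.83 and 8.25 at 28 µM, and 7.89, 7.75, 6.52 and 7.66 at 42 µM. The groups overlapped, at -0.12 ± 0.29 and -0.43 ± 0.29, and 42 µM replicate 3 was the lowest of all 12 arrays.

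The promoters of LDHA and PGK1 are shown as examples. Both genes had a brightest probe below DMSO on every 42 µM array, as did TPI1, whose windows are not printed. Each window is the 250 bases before the transcription start in RefSeq (GRCh38.p14), at chr11:18394313-18394562 and chrX:78103998-78104247, both on the plus strand, and capitals mark ACGTG or GCGTG read on either strand, the core of the hypoxia response element:
LDHA promoter: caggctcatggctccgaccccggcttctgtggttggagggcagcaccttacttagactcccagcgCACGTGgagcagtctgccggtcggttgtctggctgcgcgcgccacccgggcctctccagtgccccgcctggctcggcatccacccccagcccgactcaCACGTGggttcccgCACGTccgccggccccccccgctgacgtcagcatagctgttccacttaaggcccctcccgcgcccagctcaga
PGK1 promoter: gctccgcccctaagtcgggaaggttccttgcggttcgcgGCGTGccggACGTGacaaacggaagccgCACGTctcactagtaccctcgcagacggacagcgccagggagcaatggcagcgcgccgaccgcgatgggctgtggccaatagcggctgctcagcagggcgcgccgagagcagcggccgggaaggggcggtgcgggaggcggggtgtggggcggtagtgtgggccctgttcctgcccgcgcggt
Each window holds 3 marked places. In LDHA 2 of them are CACGTG, the E-box letters bound by MYC and ChREBP family factors, which hold ACGTG on both strands and so overlap the other motif. All 10 members matched the RefSeq table, with 21 windows in all, of which 13 held ACGTG or GCGTG, and LDHB was the 1 gene with none. Among all 35116 promoter windows of this length 43.21% held those letters and 6.345% held CACGTG, which was in 3 of the 21 member windows. TPI1, which was also lower, had no match in 1 of its 2 windows and 2 in the other. A second LDHA window, not printed, held 1 match and no CACGTG.

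Over the members as a group, 2 of the 9 measured genes (LDHA and TPI1, each by 1 probe) were lower at 42 µM past both limits, an adjusted p under 0.05 and a log2 difference of at least 0.6. Of all 24251 gene names tested, 1.58% were lower and 1.73% higher by the same limits, and no member was higher. A further count takes overlap alone: 3 members (LDHA, TPI1 and PGK1) had a brightest probe below DMSO on all 4 arrays and none above, beside 7.0% of all genes below and 5.93% above. Since the members were chosen on this contrast, nothing is read from these shares. The brightest probes had a median log2 difference of -0.54, against -0.02 over all genes, and 8 of 9 were negative, HK2 being the other. Of all 20 probes 16 were negative.

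At 28 µM limma called no member and 0% of all genes, lower or higher. At an unadjusted p under 0.05 with the same limit on size, 3 members (LDHA, TPI1 and ALDOA) were lower, beside 1.34% of all genes lower and 1.65% higher. Without 28 µM replicate 4, 2 members (LDHA and TPI1) were lower past the adjusted limits, beside 1.10% lower and 1.60% higher of all genes. That array was singled out by these same members, so nothing is read from the count. The median over members moved from -0.12 to -0.37 when replicate 4 was left out. Without 28 µM replicate 1 instead, limma called no member and 0 of all genes at 28 µM. Between 42 µM and 28 µM limma called 0% of genes and no member, and no member passed at an unadjusted p under 0.05, beside 0.227% of genes lower and 0.157% higher.

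**Figure D3:**
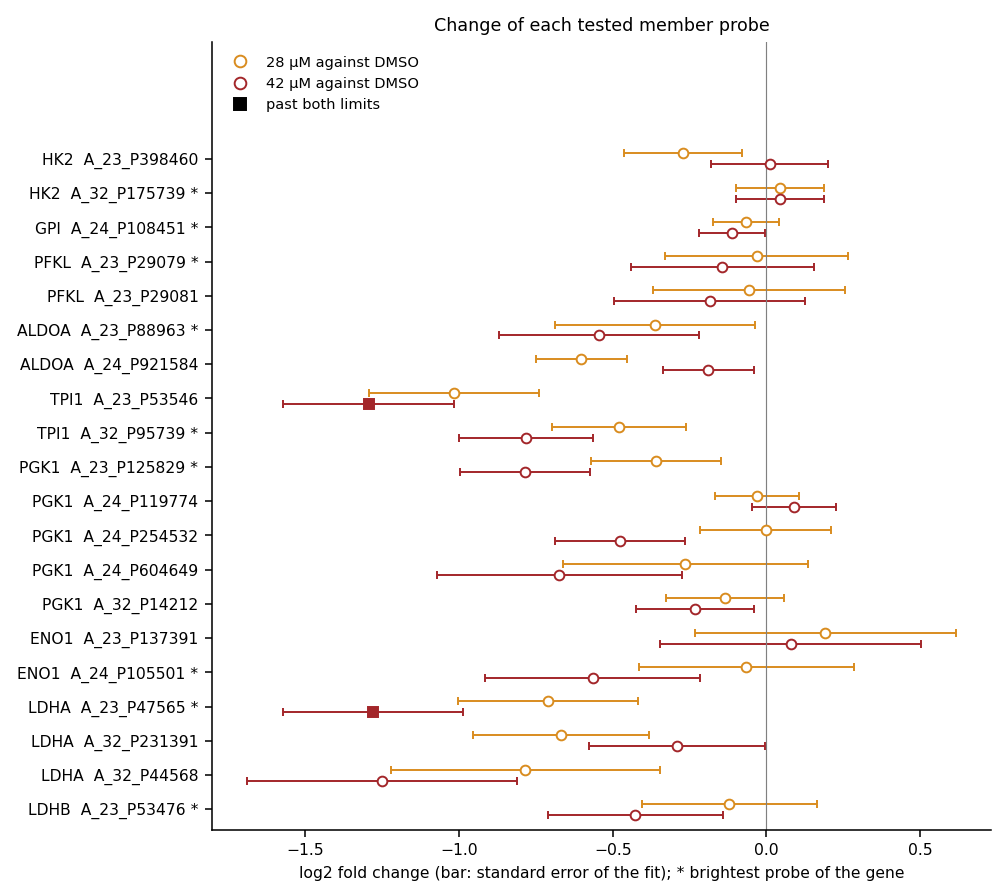
Log2 difference from DMSO (x axis) ± SE for the 20 member probes at 28 µM and 42 µM, grouped by gene, with an asterisk at each gene's brightest probe and filled squares where both limits were passed. The 42 µM values run from -1.29 for a TPI1 probe to 0.09 for a PGK1 probe, and probes of LDHA, PGK1 and ENO1 differ among themselves.

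By array, the median of the 9 members minus their DMSO means was -0.17, -0.17, 0.23 and 0.08 in DMSO replicates 1 to 4. It was -0.71, -0.47, -0.05 and 0.36 at 28 µM and -0.94, -0.13, -0.41 and -0.22 at 42 µM. Replicate 1 was lowest in both treated groups, and 28 µM replicate 3 and 42 µM replicate 2 lay within the DMSO range. The highest of all 12 arrays was 28 µM replicate 4.

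**Figure D4:**
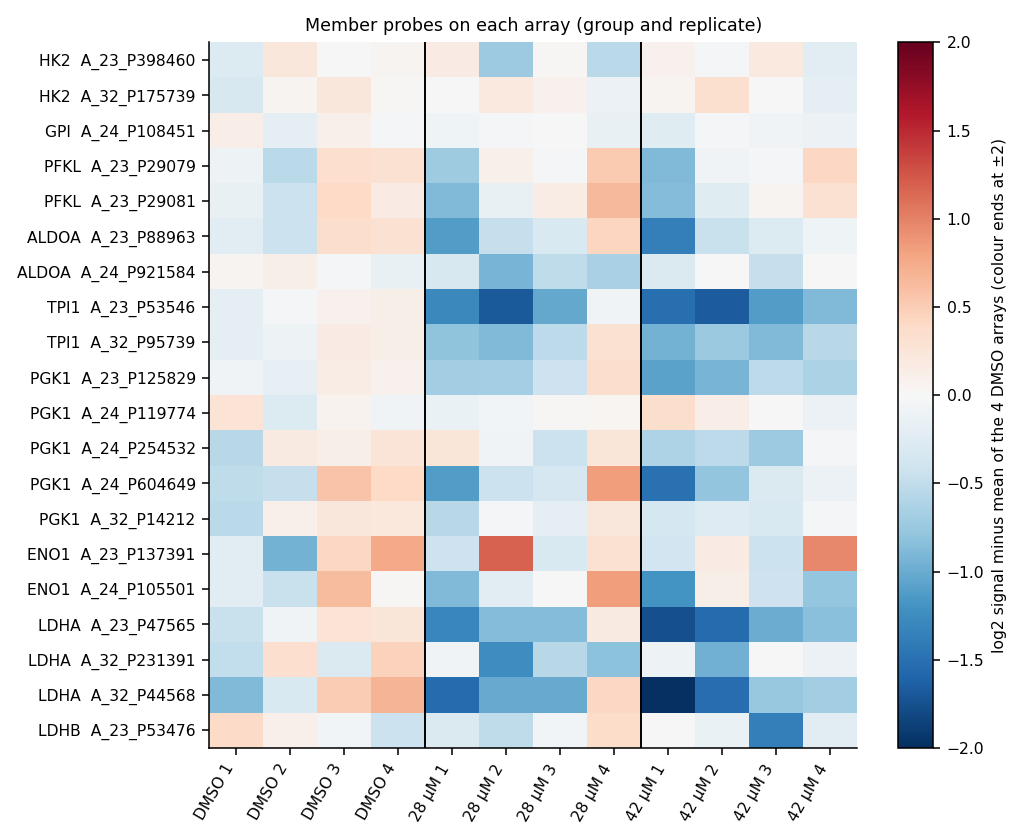
Log2 intensity minus the DMSO mean for the 20 member probes (rows) on the 12 arrays (columns), blue to red with colour ends at -2 and 2. Both TPI1 probes, the brightest PGK1 probe and the LDHA probes other than the downstream one lie below the DMSO mean on treated arrays other than 28 µM replicate 4. On that array 8 of the 20 probes lie above the DMSO range and 3 below.

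Genes around the members were taken from 9 lists of 119 genes, of which 114 were tested in the same limma fit over all probes. The lists were drawn up with earlier results of these data known. Their counts and the adjusted p-values of their genes are therefore a description, not an independent test, and nothing is read from the shares beside them. At 42 µM 11 of the 114 rose and 3 fell, beside 1.73% of all genes higher and 1.58% lower, while the median over their brightest probes was -0.07, against -0.02 over all genes. The split depended on the scaling: with the 75th percentile in place of quantiles 7 rose and 8 fell. At 28 µM limma called none (8 higher and 5 lower at an unadjusted p under 0.05), and 10 higher and 4 lower without replicate 4, beside 1.60% and 1.10% of all genes. With the slide as a block limma called none at 42 µM (22 at an unadjusted p under 0.05), beside 1 of all genes (1483 unadjusted). The 16 probes compared within slides, 1 for each called gene with LDHA and TPI1 included, kept their sign in all 3 slides that held both groups. That sign was fixed beforehand, because none of these probes overlapped between 42 µM and DMSO, so nothing is read from it. Leaving out DMSO replicate 2 or 42 µM replicate 2 also left none (20 and 21 at an unadjusted p under 0.05). In both fits limma called 0 of all genes (1443 and 1279 unadjusted), so the loss was not particular to these lists. PHGDH, GPT2 and MYCN lost their calls only without either of those 2 arrays, and the remaining called genes without any 1 of 3 to 9 arrays, PSAT1 being the gene with 9.

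Among the other glycolytic enzymes, 17 of 22 were tested, with 1 higher, 1 lower and 14 negative, a median of -0.13. PGAM1, the mutase that follows PGK1, read 13.97, 13.93, 14.14 and 14.19 in DMSO, 13.21, 13.06, 13.24 and 14.15 at 28 µM, and 12.93, 12.89, 13.27 and 13.04 at 42 µM. It fell by 1.03 ± 0.20 at 42 µM (limma adjusted p = 0.0184), with all arrays below DMSO. ENO2, the neuronal isoform of enolase, rose by 0.87 ± 0.16 (adjusted p = 0.0172) from a DMSO mean of 8.05 ± 0.13 to 8.92 ± 0.18. GAPDH, which oxidizes the triose before PGK1, differed by -0.29 ± 0.17 (adjusted p = 0.476) and PKM, the pyruvate kinase of tumours, by -0.64 ± 0.42 (adjusted p = 0.543), and neither passed.

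Of 13 carriers of glucose and lactate 1 rose and 1 fell. SLC2A1, the widely expressed glucose transporter GLUT1, read 10.29, 10.90, 10.40 and 11.04 in DMSO and 9.94, 9.36, 10.01 and 10.04 at 42 µM, and fell by 0.82 ± 0.19 (adjusted p = 0.0387), while its other probe differed by -0.34. That call was lost with processed signals, scaled by quantiles or by the 75th percentile. SLC2A8, the intracellular transporter GLUT8, rose by 0.63 ± 0.12 by its brightest probe (adjusted p = 0.0192), a call lost under all 3 other scalings. At 28 µM without replicate 4 that SLC2A8 probe differed by 0.60 and was called, while its other probes differed by 0.39 and 0.34 and were not. Among the 5 genes setting the level of the allosteric activator of phosphofructokinase, PFKFB2 rose by 0.84 ± 0.21 by 1 probe (adjusted p = 0.0466), with 0.36 by its brighter one. Its call was lost under 6 of 13 other settings, the 3 other scalings among them, and on leaving out any 1 of 8 arrays.

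In the branches off glycolysis 3 of 15 genes rose and none fell, all 3 being the enzymes of serine synthesis from 3-phosphoglycerate. PHGDH, which catalyses the first step, read 11.69, 11.44, 11.79 and 11.55 in DMSO, 12.87, 13.22 and 13.33 in 28 µM replicates 1 to 3, and 12.80, 13.66, 13.40 and 13.40 at 42 µM. It rose by 1.69 ± 0.26 at 42 µM (adjusted p = 0.0112). The fourth 28 µM array was the lowest treated one, and treated and DMSO arrays did not overlap. PSAT1, the aminotransferase of the next step, rose by 1.08 ± 0.25 (adjusted p = 0.0384). PSPH, the phosphatase of the last step, rose by 1.17 ± 0.26 (adjusted p = 0.0289) by 1 probe, with 0.36 and 0.29 by the others. PSAT1 and PSPH were not called with processed signals, scaled either way, or with Edwards-corrected signals at the 75th percentile, whereas PHGDH was.

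Of 16 genes for the entry of pyruvate into mitochondria, GPT2, the mitochondrial alanine aminotransferase, rose by 0.99 ± 0.16 (adjusted p = 0.0129). None of 9 pentose phosphate genes passed, with a median of 0.15 and the widest values at PGD (0.56) and PGLS (0.55), a dehydrogenase and the lactonase of the oxidative arm. None of 7 malate-aspartate shuttle genes passed either, with the carriers SLC25A13 at 0.50 and SLC25A12 at 0.36.

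Of 16 transcriptional regulators of glycolysis genes 3 rose and 1 fell. MYCN, the N-myc factor, read 12.44, 12.42, 12.27 and 12.03 in DMSO, 11.58, 11.16, 11.29 and 11.95 at 28 µM, and 10.61, 10.37, 11.09 and 10.94 at 42 µM. It fell by 1.54 ± 0.19 at 42 µM by this brightest probe (adjusted p = 0.0112), and both treated groups lay below DMSO on every array. The dimmer MYCN probe moved less: at 28 µM without replicate 4 it differed by -0.28 ± 0.14 and was not called. The brightest probe differed by -0.95 ± 0.18 in that fit and was called. MYC rose by 1.20 ± 0.24 by its brightest probe (adjusted p = 0.0216), with -0.19 and 0.13 by the others, and was not called with processed signals at the 75th percentile. MLXIPL, the glucose-sensing factor ChREBP, rose by 1.39 ± 0.33 and 0.95 by dimmer probes (adjusted p = 0.0393 and 0.0427), whereas its brightest probe differed by 0.00, and the first of these calls was lost with processed signals. KLF4, a zinc-finger factor, rose by 0.85 ± 0.18 (adjusted p = 0.0268).

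Among 16 hypoxia-responsive genes outside glycolysis only VEGFA, an angiogenic growth factor, passed. It rose by 1.18 ± 0.23 by its called probe (adjusted p = 0.0184) and differed by 0.48 by each of its others. Of the 16 brightest probes 12 were negative, with a list median of -0.10.

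**Figure D5:**
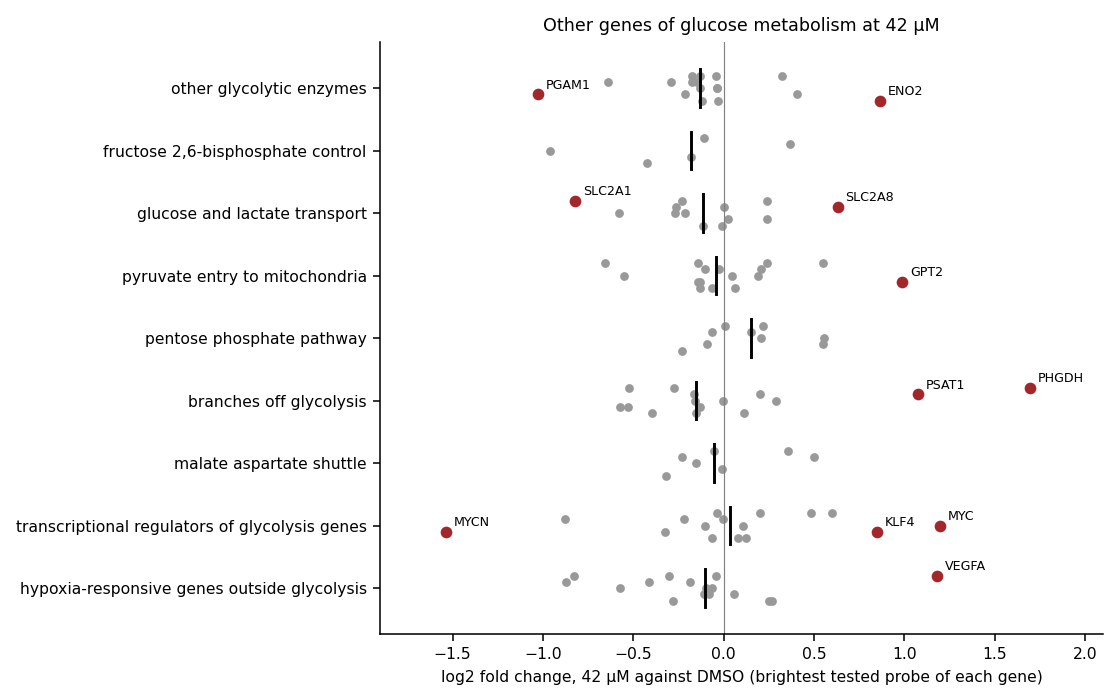
Log2 difference at 42 µM from DMSO (x axis) for the brightest probe of each of the 114 tested genes in the 9 lists (y axis), red where the gene's plotted probe passed both limits and black ticks at list medians. PHGDH at 1.69 and MYCN at -1.54 are the extremes; PFKFB2, PSPH and MLXIPL passed by a dimmer probe and are not red.

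Over the 12 arrays, the brightest LDHA probe moved most like PGK1 (r = 0.96) and TPI1 (0.93) among the members, followed by ALDOA (0.84), ENO1 (0.68) and PFKL (0.61), with GPI at 0.28, LDHB at 0.25 and HK2 at -0.19. After group means were removed the values were 0.91 for PGK1, 0.84 for TPI1, 0.89 for ALDOA and 0.82 for PFKL, so the likeness was also present among arrays of the same group. Outside the members PGAM1 (0.94), PKM (0.84), the regulator MYCN (0.84) and GAPDH (0.83) were also near, with MYCN at 0.49 once group means were removed. All points share the same arrays and normalisation.

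Among the genes in no list, the 5 most like LDHA by r over the 12 arrays were CCNA2 (0.99), NUSAP1, ERCC6L, GINS4 and KIF20A (0.98 each). CCNA2, cyclin A2, read 9.99, 10.24, 10.59 and 10.40 in DMSO, 8.97, 9.33, 9.52 and 10.65 at 28 µM, and 8.56, 8.80, 9.26 and 9.42 at 42 µM. Replicate 1 was the lowest CCNA2 array in each group, as for LDHA, and 28 µM replicate 4 the highest of all. The other 4 differed from DMSO by -0.69 to -1.28 at 42 µM. The most opposite were BEX2 (r = -0.99, 1.94 at 42 µM), an unnamed transcript (-0.99, 0.73) and HOMER3 (-0.98, 0.51).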

How the data were processed

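The authors hybridised Cy3-labelled cRNA to 12 one-colour Agilent whole human genome arrays and read them with Agilent Feature Extraction 10.7.3.1, per the labels. The deposited scanner values are linear intensities (mean signal, median background, processed signal). The deposited series table holds log2 values that the authors background-corrected by the Edwards method and quantile-normalised in limma, per their methods, and it served as an alternative.

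Here, mean signals were corrected by the Edwards method, quantile-normalised, turned to log2, and averaged over spots of a probe. Control and outlier spots were left out, and a probe was kept when well above background on at least 2 arrays of 1 group (33467 of 41000 probes). Groups came from the sample titles. limma 3.58.1 (R 4.3.3, data.table package, version 1.17.8, jsonlite 2.0.0) was fitted over all 3 groups (9 residual degrees of freedom), with Benjamini-Hochberg adjustment over all probes and limits of an adjusted p under 0.05 and a log2 difference of 0.6. A gene was called by any probe, and represented otherwise by its brightest. Symbols were updated by accession for 28078 probes (68.5%). Sequences came from the scanner output (hg19) and RefSeq (GRCh38.p14). Figures were drawn with Python 3.11.15 and matplotlib 3.10.9. The fit was tested on simulated data.

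Named genes were all members, the list genes past both limits (up to 4 per list and direction), GAPDH, PGAM1 and PKM, the 2 widest genes of a list with no call, the 5 genes most like LDHA and the 3 most opposite. The members and lists were chosen with earlier results of these data known. Alternatives were other background corrections (normexp with an offset of 50) and scalings, filters, limits, blocks, array weights, probe means and leaving out each array. Array number (4 per group) limits the precision. Probes of different genes were not compared in level.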

Additional observations from a re-analysis of the deposited data

Results flagged for a closer look

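Of 120 groups of 4 arrays checked over members and named genes, 9 had a single array far from the other 3, by the gap to the nearest array over the group's range, where chance gives about 1 in 20. Of these, 3 were 28 µM replicate 4: GPT2 lowest (ratio 0.876, log2 level 9.76), PGAM1 highest (0.835, 14.15) and VEGFA lowest (0.939, 8.38). Among the members, the downstream LDHA probe was lowest on 42 µM replicate 2 (0.861, 11.43), LDHB on 42 µM replicate 3 (0.835, 6.52) and a dim PGK1 probe on DMSO replicate 1 (0.853, 5.68). SLC2A1 was lowest on 28 µM replicate 3 (0.855, 9.73) and on 42 µM replicate 2 (0.845, 9.36). VEGFA was highest on DMSO replicate 2 (0.922, 8.77).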

How the results depend on the processing

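LDHA kept its negative direction under all alternatives run, while the balance of pathway genes turned from 11 higher and 3 lower to 7 higher and 8 lower with Edwards-corrected signals at the 75th percentile. LDHA at 42 µM was no longer past the limits with quantile-normalised processed signals (-1.23), the slide as a block (-1.41) and the mean of its probes (-0.94). Within the 3 slides it was -1.99, -1.81 and -0.92 at 42 µM, and -0.43, -1.54 and -0.091 at 28 µM. Members called at 42 µM (2 as reported) were 1 with quantile-normalised processed signals, 0 with the slide as a block and 1 with probe means. Of all genes, 415, 1 and 682 were called under these settings, against 803 as reported. Members called were 3 with processed or Edwards-corrected signals at the 75th percentile. They were also 3 with the slide as a random block, with array weights and with only the 2 groups compared. In all of these latter fits PGK1 was past the limits by its brightest probe. It was at -1.02 with processed signals at the 75th percentile, against -0.78 as reported. The brighter TPI1 probe was past them in the same fits, except with processed signals. Leaving out single arrays gave LDHA values of -1.43 to -1.12 at 42 µM and -1.01 to -0.52 at 28 µM, and 0 to 3 members called at 42 µM and 0 to 2 at 28 µM. Over the same fits 0 to 1083 of all genes were called at 42 µM and 0 to 654 at 28 µM.

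Pathway genes called lower at 42 µM (3 as reported) were 5 with processed signals and 8 with Edwards-corrected signals at the 75th percentile, 0 with the slide as a block, 6 with it as a random block, 8 with array weights and 5 with only the 2 groups compared. Pathway genes called higher (11) were 6 and 7 at the 75th percentile, 0 with the slide block, 6 at a log2 limit of 1 and 7 with probe means. In either direction, limma called 803 of all genes as reported, 577 and 737 at the 75th percentile and 1 with the slide block. The counts were 1000 with the random block, 1111 with array weights and 1051 with only the 2 groups compared. They were 329 at a log2 limit of 1 and 682 with probe means. Leaving out single arrays gave 0 to 6 lower, 0 to 11 higher and, at 28 µM, 0 to 14 called. The causes were not tested.

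Replicate numbers were not treated as pairing in the main fit, and whether same-numbered arrays belong together was not tested. Same-numbered arrays correlated at -0.46 to 0.62, with a median of 0.22, against a median of -0.18 for pairs sharing neither number nor slide. Of 12 arrays 5 correlated best with their own number. With the replicate block, LDHA differed by -1.28 ± 0.16 (SE) at 42 µM, against an SE of 0.29 without it. With that block 3 members were called, and 8 pathway genes were lower and 11 higher. Of all genes, 1207 were then called at 42 µM. Probes near background, such as those of HK1, limit what 4 arrays a group can show.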
